A study of Arabidopsis thaliana with 4 samples.

Results

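Clade A of the type 2C protein phosphatases (PP2C) holds 9 Arabidopsis thaliana genes, whose proteins act with the hormone receptors as co-receptors of abscisic acid (ABA). They are ABI1 (AT4G26080), ABI2 (AT5G57050), HAB1 (AT1G72770), HAB2 (AT1G17550), AHG1 (AT5G51760), AHG3 (AT3G11410), HAI1 (AT5G59220), HAI2 (AT1G07430) and HAI3 (AT2G29380). The members were taken by gene identifier, as a family proposed with earlier results of these data known, and all 9 were found among the 32548 genes of the expression table. RNA was sequenced from whole seedlings 2 weeks old, with 2 libraries of the uba2c mutant, labelled uba2c(-/-), and 2 libraries of Col-0, the wild-type accession. Plates of Murashige and Skoog medium under long days were used for both genotypes, with 16 h of light at 23 °C and 8 h of darkness at 22 °C, and no treatment with ABA is given in the labels. The product of UBA2C binds RNA, and the series title ties it to flowering that depends on ambient temperature. The labels name no allele and do not say if libraries of 1 genotype were grown or harvested apart. The p-values therefore reflect only how far these samples spread, and that spread could be technical.

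Without ABA, clade A PP2Cs bind SnRK2 kinases and keep them dephosphorylated and inactive. When a PYR/PYL receptor binds ABA, it docks onto the phosphatase and blocks its active site. The kinases are then freed to phosphorylate bZIP transcription factors and ion channels. Several clade A genes are known to be induced by ABA themselves, so that the hormone raises the transcripts of its own negative regulators.

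Of the 9 genes, 7 rose in uba2c, 0 fell and 2 did not pass the test (limma, Benjamini-Hochberg adjusted p below 0.05 over all genes tested). Among all 22439 genes tested, 17.4% were called higher in uba2c and 17.4% lower. With edgeR on recovered reads the count of members was again 7 higher and 0 lower, against 18.8% of genes called higher and 18.7% lower, and 0 members were lower at an unadjusted p under 0.05 with either tool. The median log2 fold change, uba2c over Col-0, was 0.55 over the 9 members and -0.00 over all genes tested. The same 7 members showed no overlap between the genotypes, with both uba2c libraries above both Col-0 libraries, which held for 33.6% of genes tested, and 0 members had both uba2c libraries below both Col-0 libraries, which held for 34.5%. At least 2-fold rises were found in HAI1, HAI2 and HAI3, against 2.29% of all genes tested. Without uba2c 1 or without uba2c 2, limma called 0 members and 0 genes in all, with 7 members higher at an unadjusted p under 0.05 in each case and adjusted p-values for HAI1 of 0.0868 and 0.0850, while edgeR called 6 members higher in each case.

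**Figure D1:**
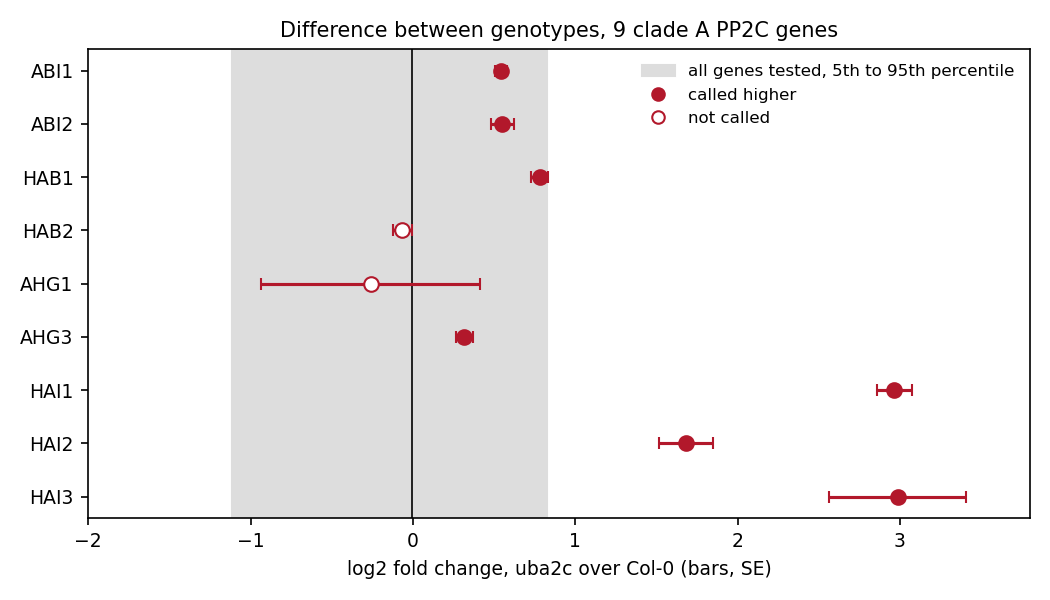
Log2 fold change (uba2c over Col-0, x axis) of the 9 clade A PP2C genes, with bars for the SE, filled points for genes called higher and open points for genes not called. The grey band runs from the 5th to the 95th percentile of all genes tested, -1.12 to 0.82, and the vertical line marks their median, -0.0043. HAI1 (2.97), HAI2 (1.68) and HAI3 (2.99) lie to the right of the band.

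The libraries held between 19720586 and 19847651 recovered reads. The transcript of AT3G15010, the locus known as UBA2C, was lower in both mutant libraries, at 209 and 234 in uba2c against 799 and 771 in Col-0 (log2 fold change -1.83, limma adjusted p = 2.64e-06). As labelled, the samples were seedlings: the leaf genes RBCS1A and RCA were abundant in all 4 libraries, and of 7 embryo and seed markers 5 had 10 or fewer reads over the 4 libraries together, with ABI3 at 0. Values below are the deposited ones, read counts that were scaled to equal library size. Fold changes were computed from log2(value + 0.5), so those of low genes are understated.

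The 9 genes are spread over all 5 chromosomes. In the TAIR10.1 annotation HAB1 (chr1:27389948-27393327), HAB2 (chr1:6034270-6037398), ABI2 (chr5:23087122-23089631), AHG1 (chr5:21026805-21029188) and HAI3 (chr2:12608675-12610350) lie on the plus strand. ABI1 (chr4:13219915-13222376), AHG3 (chr3:3583782-3585850), HAI1 (chr5:23894404-23896939) and HAI2 (chr1:2280746-2282828) lie on the minus strand. The coding sequence is split into 4 segments in 7 members and into 3 in HAI2 and HAI3. HAB1 and HAB2 shared 78.9% of aligned coding bases, ABI1 and ABI2 78.8%, and HAI2 and HAI3 75.7%. HAI1 shared 67.7% with HAI3 and 67.6% with HAI2. No 50-base window within the exons of any member occurred a second time in the genome on either strand. Reads of that length within a single exon and without mismatches were therefore not ambiguous between members. Reads across splice junctions were not checked. ABI1 overlaps AT4G26070 on the opposite strand by 22 bases, and the other members overlap no annotated gene.

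The promoters of the HAI genes and AHG3 are shown because they include the 3 members with the largest log2 fold changes (HAI1, HAI2, HAI3) and the member with the most ABA-response core motifs in this window (AHG3). Each is the 250 bases before the annotated gene start in RefSeq's TAIR10.1 genome, read in the direction of transcription: HAI1 chr5:23896940-23897189 (minus strand), HAI2 chr1:2282829-2283078 (minus), HAI3 chr2:12608425-12608674 (plus) and AHG3 chr3:3585851-3586100 (minus). Capitals mark ACGTG on either strand (CACGT when read on the other), the core of the ABA-responsive element, and a CACGTG counts as 2 overlapping matches.
HAI1: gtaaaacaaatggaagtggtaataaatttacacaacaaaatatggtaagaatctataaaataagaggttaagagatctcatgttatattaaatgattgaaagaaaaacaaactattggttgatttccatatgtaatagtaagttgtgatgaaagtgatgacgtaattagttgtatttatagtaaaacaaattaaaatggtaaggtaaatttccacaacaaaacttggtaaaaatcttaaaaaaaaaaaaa
HAI2: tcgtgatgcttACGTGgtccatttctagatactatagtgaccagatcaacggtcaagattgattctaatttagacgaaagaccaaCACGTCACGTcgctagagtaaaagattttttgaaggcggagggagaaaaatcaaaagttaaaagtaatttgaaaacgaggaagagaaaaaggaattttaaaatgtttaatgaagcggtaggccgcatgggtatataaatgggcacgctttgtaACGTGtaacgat
HAI3: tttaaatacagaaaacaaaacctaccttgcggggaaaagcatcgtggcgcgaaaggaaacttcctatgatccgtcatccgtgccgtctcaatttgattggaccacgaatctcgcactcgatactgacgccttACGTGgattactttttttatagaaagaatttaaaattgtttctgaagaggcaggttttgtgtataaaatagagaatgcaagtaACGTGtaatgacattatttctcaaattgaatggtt
AHG3: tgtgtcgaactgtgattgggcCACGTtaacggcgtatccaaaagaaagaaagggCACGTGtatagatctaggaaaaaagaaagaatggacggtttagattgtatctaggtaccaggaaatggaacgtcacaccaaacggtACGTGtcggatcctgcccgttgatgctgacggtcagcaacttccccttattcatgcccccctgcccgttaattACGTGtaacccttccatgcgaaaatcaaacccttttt

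AHG3 held 5 matches to ACGTG in this window, HAI2 held 4, HAI3, HAB2 and AHG1 held 2 each, HAB1 held 1, and ABI1, ABI2 and HAI1 held 0. Over 32546 promoter windows of the same length, 21.8% held at least 1 match and 8.07% at least 2. The start codon of HAI1 lies 442 bases after its annotated gene start. The 500 bases before that start codon held 3 matches, none of them wholly before the gene start. Counted in this second way, AHG3 and HAI2 had 5 matches each, AHG1 had 4, HAI3 had 2, and ABI1, ABI2, HAB1 and HAB2 had 0. The start codons of ABI1, ABI2, HAB1 and HAB2 lie 548, 598, 1050 and 647 bases after the annotated gene start. Their windows therefore hold no bases from before that start. In AHG3, HAI2, AHG1 and HAI3 the distance is 201, 172, 111 and 180 bases, so the counts cover unlike regions. In the 1000 bases before the annotated start HAB1 and HAI2 had the most, with 6 each, against 5 in AHG3 and 0 in HAI1. Among 32546 promoter windows of 1000 bases, 53.4% held at least 1 match and 26.9% at least 2. Of 27443 genes, 34.8% held at least 1 match in the 500 bases before the start codon and 5.45% held at least 3. A match is a run of letters and not a measured binding site.

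HAI1, HAI2 and HAI3 are the highly ABA-induced PP2C genes, named for their strong rise after ABA, and act as negative regulators of osmotic stress and ABA responses. HAI1, also known as the senescence-associated gene SAG113, had values of 533 and 586 in uba2c, against 65.8 and 76.6 in Col-0. Both mutant libraries stood far above both wild-type libraries. The means were 559 ± 37.5 in uba2c and 71.2 ± 7.66 in Col-0 (SD, n = 2 each), a 7.82-fold difference (log2 fold change 2.97, SE 0.11, limma adjusted p = 1.66e-06).

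HAI2, also known as HONSU, a negative regulator of seed dormancy, had values of 163 and 151 in uba2c, against 55.3 and 42.5 in Col-0. The genotypes did not overlap. Its means of 157 ± 8.28 in uba2c and 48.9 ± 9.04 in Col-0 (SD, n = 2 each) were 3.21-fold apart (log2 fold change 1.68, SE 0.17, limma adjusted p = 0.000194). Leaving out Col-0 1 or Col-0 2 moved its log2 fold change in limma to 1.87 or 1.49.

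HAI3 was a low gene in both genotypes, at 21.2 and 16.7 in uba2c, against 1.94 and 1.94 in Col-0. These values came from 22 and 17 reads in uba2c and 2 reads in each Col-0 library. HAI3 passed the filter on values of at least 10 in 2 libraries through the uba2c libraries only. The ratio of its reads, uba2c over Col-0, was 9.70 with a 95% exact interval of 3.50 to 37.4, which covers counting error only (log2 fold change 2.99, SE 0.42, limma adjusted p = 0.00121).

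ABI1 and ABI2 are the founding members, found through dominant mutations that make plants insensitive to ABA. ABI1 had values of 3368 and 3251 in uba2c, against 2265 and 2269.8 in Col-0. The genotypes were well apart beside a narrow spread, with means of 3309 ± 83.2 in uba2c and 2267 ± 3.57 in Col-0 (SD, n = 2 each; log2 fold change 0.55, SE 0.04, limma adjusted p = 2.88e-05). ABI2 had values of 468 and 508 in uba2c, against 335 and 330.5 in Col-0. It was again higher in both mutant libraries (log2 fold change 0.55, SE 0.07, limma adjusted p = 0.000713). The log2 ratio of ABI1 to ABI2 was 2.85 and 2.68 in uba2c and 2.75 and 2.78 in Col-0, so this ratio overlapped between the genotypes.

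HAB1 and HAB2, named for their homology to ABI1 and ABI2, differed in what they showed. HAB1, which holds back the guard cell kinase OST1, had values of 1047 and 1069 in uba2c, against 635 and 597 in Col-0. Its means were 1058 ± 15.9 in uba2c and 616 ± 27.0 in Col-0 (SD, n = 2 each), with no overlap (log2 fold change 0.78, SE 0.05, limma adjusted p = 2.88e-05). HAB2 had values of 997 and 916 in uba2c, against 1029 and 973 in Col-0, and the genotypes overlapped. It did not pass (log2 fold change -0.07, SE 0.06, limma adjusted p = 0.416). The log2 ratio of HAB1 to HAB2 was 0.07 and 0.22 in uba2c and -0.70 and -0.70 in Col-0. The ratio did not overlap between the genotypes, but the two-sided exact permutation test over 4 libraries gave p = 0.333 (0.5 adjusted over the 3 pairs of close relatives compared), which is the smallest p this design allows. The log2 ratio of HAI2 to HAI3 was 2.91 and 3.14 in uba2c and 4.52 and 4.14 in Col-0, again without overlap and with the same exact permutation p. The Col-0 ratios rest on 2 HAI3 reads per library, and the 95% exact intervals of the read ratios, uba2c over Col-0, overlapped between HAI2 (2.54 to 4.02) and HAI3 (3.50 to 37.4).

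AHG3, also called PP2CA, and AHG1 are known for ABA-hypersensitive germination in their mutants. AHG3 had values of 1369 and 1452 in uba2c, against 1098 and 1167 in Col-0. Its means of 1410.4 ± 58.8 in uba2c and 1132 ± 49.2 in Col-0 (SD, n = 2 each) gave the smallest fold change among the members that rose (log2 fold change 0.32, SE 0.05, limma adjusted p = 0.00250). Its call was lost in limma without a trend (adjusted p = 0.0699), in edgeR without uba2c 1 (0.0514) or uba2c 2 (0.0723) and in limma without uba2c 1 (0.114) or uba2c 2 (0.140). Across the 20 alternatives its adjusted p ran between 1.66e-05 and 0.140. AHG1, which acts mainly in seeds, had 2 and 4 reads in uba2c, against 6 and 2 reads in Col-0. The ratio of its reads, uba2c over Col-0, was 0.746 with a 95% exact interval of 0.213 to 2.45, so no difference was detectable at this depth.

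**Figure D2:**
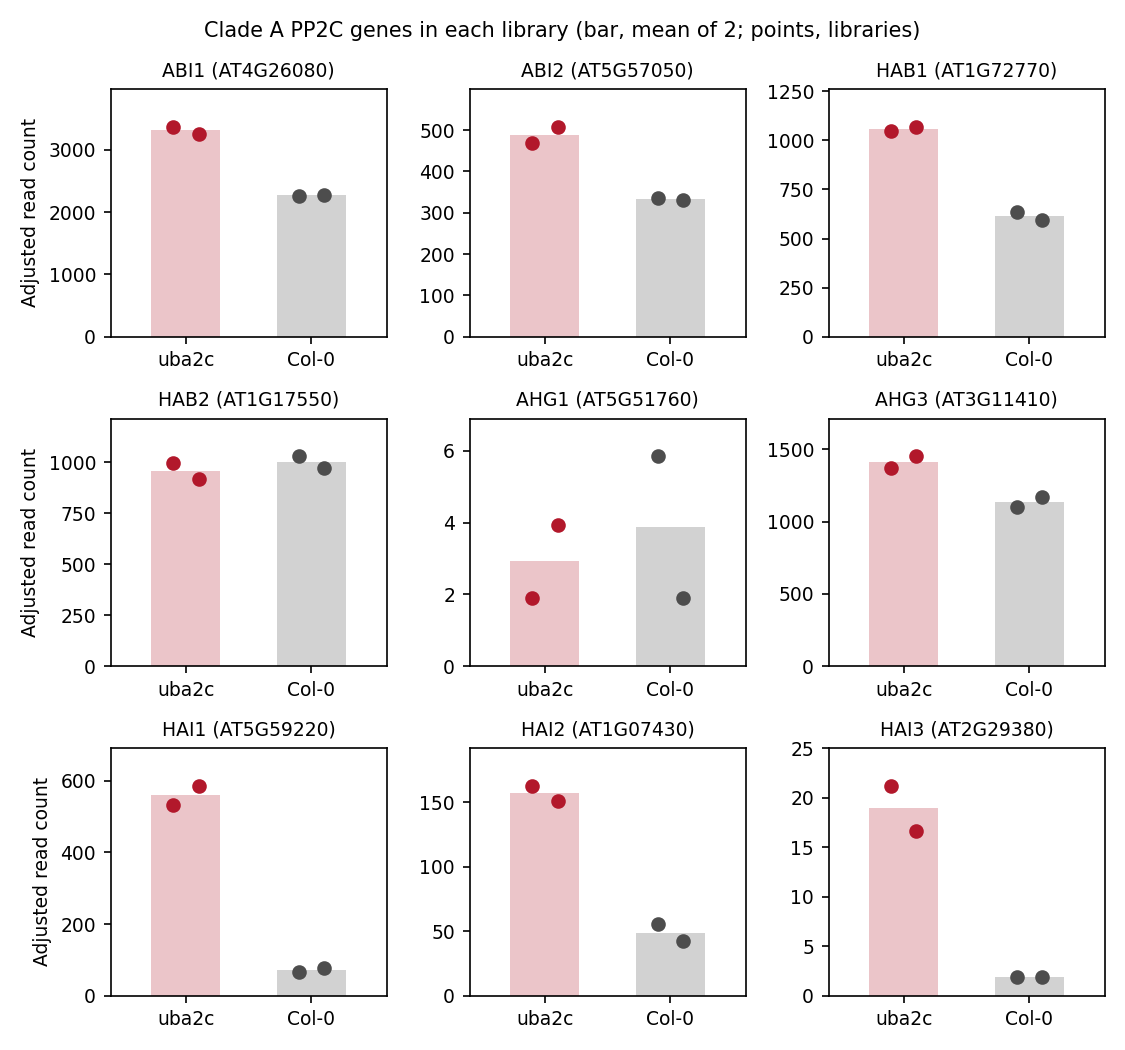
Deposited library-size-adjusted read count (y axis, from 0, each panel with its own scale) of the 9 genes in uba2c (left) and Col-0 (right). Points are the 2 libraries of each genotype and bars their means. The libraries of the genotypes overlap in HAB2 and AHG1 and in no other panel.

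Levels were compared between genes as RPKM, which scales the recovered reads to exon length and to the library total. In uba2c the order, from high to low, was ABI1 at 79.2 ± 2.97, AHG3 at 40.7 ± 1.17, HAB1 at 19.7 ± 0.048, HAB2 at 18.8 ± 1.36, HAI1 at 13.9 ± 0.751, ABI2 at 11.1 ± 0.497, HAI2 at 4.27 ± 0.276, HAI3 at 0.658 ± 0.119 and AHG1 at 0.0955 ± 0.0451 (SD, n = 2). HAB1 and HAB2 overlapped in the mutant libraries and no other neighbours did. In Col-0 the order was ABI1 at 54.7 ± 0.0768, AHG3 at 32.9 ± 1.41, HAB2 at 19.8 ± 0.789, HAB1 at 11.5 ± 0.502, ABI2 at 7.63 ± 0.0794, HAI1 at 1.79 ± 0.189, HAI2 at 1.34 ± 0.245, AHG1 at 0.128 ± 0.0906 and HAI3 at 0.0678 (SD, n = 2). HAI1 and HAI2 lay close in Col-0 but did not overlap, the lower HAI1 library being at 1.65 and the higher HAI2 library at 1.52, while AHG1 and HAI3 overlapped. HAI1 therefore held rank 5 of 9 in both uba2c libraries and rank 6 in both Col-0 libraries.

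The summed level of the family was 189.9 and 187 RPKM in the uba2c libraries, against 129.9 and 129.9 in the Col-0 libraries. ABI1 made up 42.8% and 41.3% of that sum in uba2c, against 42.0% and 42.1% in Col-0. HAI1, HAI2 and HAI3 together made up 9.79% and 10.2% in uba2c, against 2.49% and 2.43% in Col-0. The share of HAI1 alone was 7.05% and 7.74% in uba2c, against 1.27% and 1.48% in Col-0. HAB2 made up a smaller share in the mutant, at 10.4% and 9.55% in uba2c, against 15.7% and 14.8% in Col-0. The share of AHG3 was also smaller, at 21.0% and 22.2% in uba2c, against 24.6% and 26.1% in Col-0, although AHG3 was called higher. The family sum was higher in uba2c, so a smaller share does not mean a lower level. In whole seedlings, more RNA per cell and more cells that express a gene cannot be told apart.

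**Figure D3:**
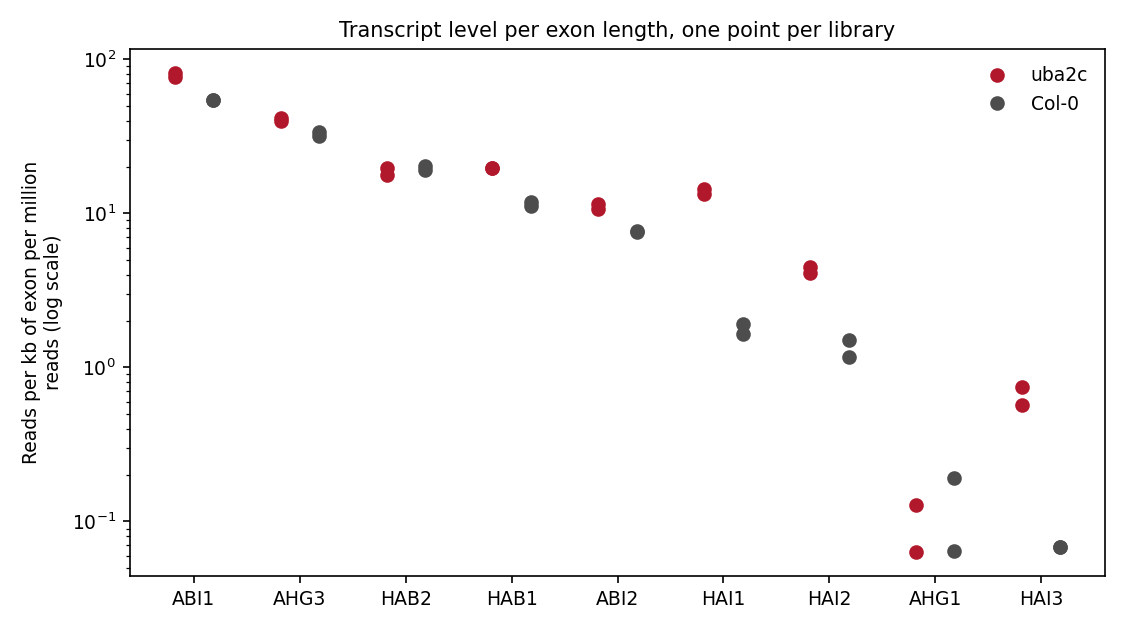
RPKM (reads per kb of exon, scaled to library totals; y axis, log scale) of each member, with a point for each library, uba2c left of Col-0, in the order of the Col-0 means. ABI1 is highest in both genotypes (79.2 in uba2c, 54.7 in Col-0), and HAI1 lies above ABI2 in uba2c but below it in Col-0.

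The other genes of the pathway were counted in lists of 65 genes, of which 60 were tested. Of these, 25 were higher in uba2c and 16 lower, against 17.4% of all genes tested called higher and 17.4% lower. Among genes tested, 70% of receptors, 50% of SnRK2 kinases and 88.9% of bZIP factors were called either way, against 34.8% of all genes. For ABA synthesis, ABA breakdown, regulators of clade A and ion channels this share was 55.6%, 75%, 69.2% and 80%. Upstream of the phosphatases, of 14 PYR/PYL receptor genes 10 were tested, 2 rose, 5 fell and 3 did not pass (median log2 fold change -0.33). The summed value of the list was 4848 and 4923 in uba2c, against 4853 and 4797 in Col-0, and 1 of the 5 falls, PYL11, rests on 1 and 0 reads in uba2c against 4 and 5 in Col-0. PYL2 averaged 28.7 ± 1.09 in uba2c and 75.6 ± 19.5 in Col-0 (log2 fold change -1.36, limma adjusted p = 0.00264), and PYL4 averaged 603 ± 44.4 in uba2c and 943 ± 0.741 in Col-0 (-0.65, limma adjusted p = 0.000163; SD, n = 2 each). PYL8, known from root growth under ABA, was higher, at 2219 ± 82.3 in uba2c and 1602 ± 43.4 in Col-0 (0.47, limma adjusted p = 0.000158).

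The kinases and transcription factors that the phosphatases restrain, directly or through the kinases, were changed in part. Of 10 SnRK2 genes 4 rose and 1 fell (median 0.15): SNRK2.3, a main ABA kinase, was at 0.37 on the log2 scale (limma adjusted p = 0.000498), SNRK2.8 at 0.93 (0.00178) and SNRK2.4, which is activated by osmotic stress, at -0.21 (0.00887). SNRK2.6, which is OST1, did not pass (0.07, limma adjusted p = 0.558), and neither did SNRK2.2 (0.009, limma adjusted p = 0.874). Of 9 ABF and ABI5-type bZIP genes 6 rose and 2 fell (median 0.38). ABF3 averaged 1719 ± 103 in uba2c and 984 ± 4.89 in Col-0 (0.80, limma adjusted p = 2.14e-05), ABF4 was at 0.60 (9.02e-05), and DPBF2 had values of 0.943 and 2.95 in uba2c, against 68.0 and 49.3 in Col-0 (-4.71, limma adjusted p = 0.000218). The ratio of DPBF2 reads, uba2c over Col-0, was 0.0329, with a 95% exact interval of 0.00882 to 0.0864 for counting error. Col-0 was the one genotype in which DPBF2 reached the minimum value of 1 in both libraries, as it was for PYL11, so both passed the filter through the genotype where they are high.

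Genes that set the level of the hormone were also counted. Of 10 synthesis genes 9 were tested, 2 rose and 3 fell (median 0.07). NCED3, the 9-cis-epoxycarotenoid dioxygenase induced by drought, had values of 764 and 765 in uba2c, against 365 and 368 in Col-0 (log2 fold change 1.06, SE 0.06, limma adjusted p = 8.20e-06). NCED5 was at 5.73 and 9.83 in uba2c, against 0.966 and 0.966 in Col-0 (2.45, limma adjusted p = 0.0126), and the ratio of its reads was 7.96, with a 95% exact interval of 1.87 to 71.3. NCED5 passed the filter through the uba2c libraries only, where it is high. ABA2 was lower (-0.30, limma adjusted p = 0.0207). Of the 4 ABA 8'-hydroxylase genes, which break the hormone down, CYP707A3 (-1.49, limma adjusted p = 0.000177) and CYP707A1 (-1.11, 0.000726) fell, CYP707A4 rose (0.79, 0.0290) and CYP707A2 did not pass (limma adjusted p = 0.970). ABA itself was not measured.

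Among 13 genes known as regulators of clade A PP2Cs 7 rose and 2 fell (median 0.24). HB-12 and HB-7 encode homeodomain-leucine zipper factors that are induced by ABA and known to act on clade A PP2C genes. HB-12 averaged 926 ± 19.6 in uba2c and 360 ± 25.7 in Col-0 (log2 fold change 1.36, limma adjusted p = 5.08e-06), and HB-7 averaged 1833 ± 5.73 in uba2c and 836 ± 107 in Col-0 (1.14, limma adjusted p = 2.91e-05; SD, n = 2 each). NAP, a NAC factor of leaf senescence known to bind the HAI1 promoter, was at 0.39. AT5G22090 was at 0.43 (limma adjusted p = 0.000390). Of 5 ion channel genes targeted by the pathway 3 rose and 1 fell (median 0.23): the potassium channel gene KAT1 was at 0.98 (limma adjusted p = 1.05e-05), AKT2 at 0.23 (0.00966), and the anion channel gene SLAC1 at -1.58 (0.000830).

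**Figure D4:**
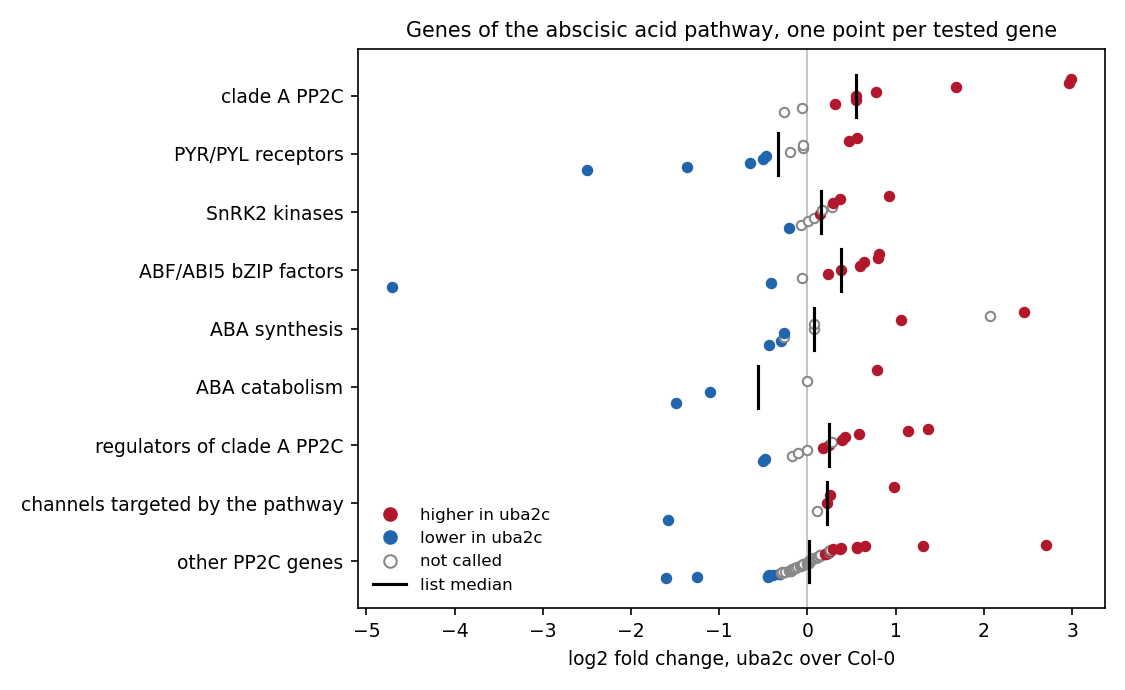
Log2 fold change (uba2c over Col-0, x axis) of every tested gene in clade A and in the other lists (rows), with filled red points for genes called higher, blue for lower, open points for genes not called, and a black bar at each list's median. The medians are 0.55 for clade A, -0.33 for the receptors and 0.01 for the other PP2C genes.

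PP2C genes outside clade A served for comparison. Of 62 further loci annotated as PP2C, 55 were tested, 14 rose, 8 fell and 33 did not pass, with a median log2 fold change of 0.01. That is 40.0% called, near the 34.8% of all genes, and 1 of the rises, AT4G11040, passed the filter through uba2c only. The calls with the smallest p among rises were AT3G05640 (1.31), AT2G20050 (0.56) and AT3G16800 (0.65), and among falls AT2G30020 (-1.26), PIA1 (-0.45) and AT5G27930 (-0.44). AT2G30020 encodes AP2C1, a phosphatase of mitogen-activated protein kinases. The share of clade A called, 7 of 9, and that of the other PP2C genes were not tested against each other. Some genes named from these lists overlap genes on the opposite strand. The overlaps are 2516 and 6 bases in ABF4, 775 and 125 in SLAC1, 383 and 28 in SNRK2.3, and 349 and 121 in ABA2. They are 169 bases in SNRK2.8, 24 in ABF3 and 8 in AT3G05640. Without stranded counting, reads from within an overlap cannot be separated from those of the other gene. SNRK2.4 (13 bases), AT5G22090 (233), PIA1 (307) and AT3G15010 (277) overlap a gene on the same strand, where strand would not separate the reads.

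The profile of HAI1 over the 4 libraries was compared with those of 19815 other genes with a mean value of at least 10, by the Euclidean distance between centred log2 values. The nearest were AT4G28140, a DREB-type AP2/ERF factor gene, at a distance of 0.144, the berberine-enzyme family gene AT5G44440 (0.160), the ethylene synthesis gene ACS8 (0.164), the RING-domain gene AT1G24580 (0.183) and the auxin response gene IAA29 (0.250). AT4G28140 had values of 74.9 and 87.4 in uba2c, against 8.70 and 11.7 in Col-0. With 4 libraries in 2 groups, such nearness says little beyond a similar fold change.

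Markers of other cells were counted against the same background of 17.4% of all genes higher and 17.4% lower. Of 6 guard cell markers 1 was higher in uba2c (KAT1), 4 were lower and 1 did not pass, and their summed value was 38655 and 38671 in uba2c, against 63494 and 62872 in Col-0. TGG1 carried most of that sum, at 37284 and 37283 in uba2c, against 62301 and 61693 in Col-0. The other guard cell markers summed to more in uba2c than in Col-0, through KAT1 at 911 and 880, against 459 and 450. FMA, a master regulator of guard cell fate, was at -0.39 on the log2 scale. Of 6 root markers 2 were higher and 4 lower, with sums of 2443 and 2467 in uba2c, against 2865 and 3126 in Col-0. IRT1 and NRT2.1 were the root markers that rose. IRT1 carried most of the sum in uba2c, at 1382 and 1393, against 309 and 300 in Col-0. PRP3 fell by -1.93 on the log2 scale, COBL9 by -1.90, EXPA7 by -1.89 and CASP1 by -0.95, so the sum hides opposite changes. Of 5 leaf mesophyll markers 3 were higher and 1 lower, with sums of 513700 and 559129 in uba2c, against 498628 and 504143 in Col-0. No marker of these 3 lists was at 0. Their part in the rise of the clade A genes was not tested. Of 9 clock genes, a list added after seeing the data, 3 were higher and 4 lower, against 34.8% of all genes called in either direction. The higher ones were LHY at 1.37, CCA1 at 0.27 and TOC1 at 0.17. The lower ones were PRR5 at -1.23, ELF4 at -0.56, GI at -0.38 and PRR9 at -0.36. PRR7 (-0.03) and LUX (0.05) did not pass. The labels give no time of harvest, so an effect of genotype on members whose transcripts vary over the day cannot be told apart from one of harvest hour.

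**Figure D5:**
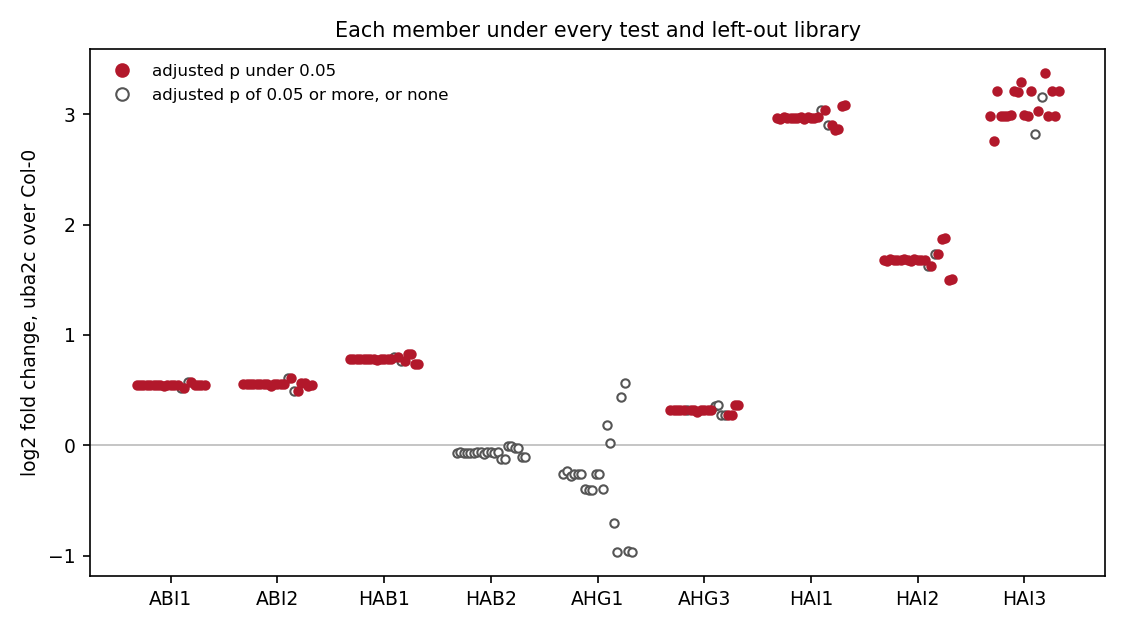
Log2 fold change (uba2c over Col-0, y axis) of each member under the main test and its alternatives, including those without each library. Filled points have an adjusted p below 0.05. The 7 genes called higher stay above 0 throughout, HAB2 ranges from -0.13 to -0.00, and AHG1 lies on both sides of 0, from -0.97 to 0.56.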

How the data were processed

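RNA was sequenced from 4 seedling libraries, 2 per genotype, as single-end reads of 50 bases, per the labels' protocols. The submitters' processing notes name HISAT2, featureCounts, edgeR, FastQC, SAMtools 1.9 and the TAIR10 build. How strand was treated, and the other versions and options, were not given there. What was deposited for each gene is a signal and not whole counts: its values have the form that edgeR's quantile adjustment gives when libraries are brought to equal size. Fitting that adjustment returned whole reads for 100% of values within 0.001, and 19720586 to 19847651 reads per library. All 32548 identifiers matched TAIR10.1, which gave symbols, exon lengths and coordinates; 7678 genes had no read. The table holds 0 columns of other samples.

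Since the values are normalised, limma 3.58.1 (R 4.3.3) (trended variance) gave the main test, on log2(value + 0.5), for the 22439 genes that reached 1 in 2 or more libraries, two-sided, with Benjamini-Hochberg adjustment over all of them at 0.05. Group was the single term. Alternatives were other pseudocounts, filters and scalings, limma without a trend, limma-voom, edgeR 4.0.16 and DESeq2 1.42.0 on recovered reads, a replicate block, and leaving out each library. Of these fits, the main limma test and edgeR were tested on simulated counts. The simulation gave all genes the same small variance beyond counting error, so it cannot show how the tests behave under the spread between plants. Intervals on reads are exact (95%) and cover counting error only. Coding sequences were aligned with Biopython 1.88. The members and lists were chosen with earlier results of these data known. Named outside clade A are the 3 called genes with the smallest p in each list (for other PP2C genes, 3 in each direction), and the 5 genes nearest to HAI1; any other list gene that is named was picked with its values in view. Genes without a symbol in the annotation keep their identifier.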

Additional observations from a re-analysis of the deposited data

How the results depend on the processing

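Over 20 alternatives, 15 called the same number of clade A genes higher as the main test (7), 3 called 6 and 2 called 0, and none of the 20 called a member lower. With a library left out, the count of members called higher ranged from 0 to 7, that of all genes called from 0 to 6262 and that of pathway genes called from 0 to 31 (limma: 0, 0, 22 and 25 without uba2c 1, uba2c 2, Col-0 1 and Col-0 2; edgeR: 15, 13, 31 and 31), against 7, 7809 and 41 with all libraries. The counts of 0 came from limma without uba2c 1 or without uba2c 2, where 7503 and 7429 genes passed an unadjusted p under 0.05 and edgeR called 2502 and 2496; without Col-0 1 or Col-0 2 limma called 3699 and 3848. These fits assume that the lone library varies like the other genotype. Limma without a trend called 3589 genes in all and 24 pathway genes, and DESeq2 called 4931 and 25; the cause was not tested. The log2 fold change of AHG1, which was not called, ranged from -0.97 to 0.56 with a library left out and turned positive without uba2c 1 (0.18 in limma, 0.019 in edgeR) and without Col-0 1 (0.44 and 0.56), on 2 to 6 reads per library. With the replicate number as a block, limma called 7 members higher, 8025 genes in all and 42 pathway genes, and edgeR called 7, 9053 and 42. The labels do not say that a number marks a shared batch. Deviations of same-numbered libraries had a correlation of 0.00806 across 19816 genes. With a single deviation per genotype, this cannot decide whether equal numbers mark a shared batch. With 2 libraries per genotype, AHG1 and HAI3 are limited by depth.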
